A study of Homo sapiens with 24 samples.

Results

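The genes described here encode the machinery that moves proteins and small molecules across the mitochondrial membranes, namely the TIMM and TOMM translocases and the SLC25 carriers. They were chosen by symbol, from the TIMM, TOMM and SLC25A numbering, without pseudogenes and antisense genes. Of 95 symbols in the table that matched, 21 were pseudogenes, and 16 had a count of 0 in at least 1 library and were left out. This left 58 members, 23 translocases and 35 carriers, of 12058 genes tested and 54583 genes in the table. The translocases left out were TIMM29, a subunit of the TIM22 complex with a 0 in 1 library and a median of 28 reads, and TOMM20L, with a median of 0 reads. The symbol rule also matched TOMM20L-DT, a divergent transcript and no translocase, which had 0 reads. The 13 carriers left out had medians between 0 and 27 reads.

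Nearly all mitochondrial proteins are encoded in the nucleus, made on cytosolic ribosomes and imported. The TOM complex of the outer membrane is the common entry gate, the small TIM chaperones guide hydrophobic precursors through the space between the membranes, and the TIM23 and TIM22 complexes bring proteins into or across the inner membrane. The SLC25 carriers, which are themselves cargo of the TIM22 route, exchange nucleotides, phosphate, organic acids, amino acids, cofactors and metals across the inner membrane.

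The cells were PANC-1, an established human line of pancreatic ductal adenocarcinoma, given DMSO, CID661578 (40 µM) or cercosporamide (5 µM) for 6 h. Both compounds act on the kinase MNK2, which phosphorylates the cap-binding protein eIF4E. In the paper, cercosporamide inhibited the kinase activity of MNK2 in vitro. CID661578 left that activity unchanged and largely abolished the binding of MNK2 to eIF4G. Phosphorylated eIF4E was higher in PANC-1 cells with either compound, there at 40 µM each. Each treatment had 4 biological replicates. For each treatment and replicate, total cytosolic RNA and RNA on more than 3 ribosomes (polysome-associated RNA) were sequenced with Smart-seq2. This gave 24 libraries in 6 groups. Each combination of treatment and replicate is called a plate here, though the labels name no plates. The question was which mRNAs changed in translational efficiency (TE), taken here as polysome-associated RNA relative to total RNA. A lower TE can thus stem from less polysome-associated RNA or from more total RNA. The paper keeps changes in total RNA alone apart as buffering, for which it predicts no change in protein.

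The 24 libraries held 9268041 to 12184749 reads on genes, except the polysome library of cercosporamide replicate 4 with 1592459 reads. In that library SLC25A15 had 4 reads, TIMM9 had 10 and TOMM7 had 51. Of the duct and epithelial markers, KRT8 (4145 to 5799 CPM, counts scaled to the normalised library size, in total RNA with DMSO), KRT18 and KRT19 were high and KRT7, SOX9 and EPCAM were low, and CDH1 had at most 10 reads in a library. The mesenchymal marker VIM lay between 837 and 1194 CPM. These marker values were scaled to all reads of a library, whereas CPM of the members below were scaled to the normalised library size. PRSS1, AMY2A, INS and PTPRC, markers of acinar, endocrine and immune cells, had 0 reads throughout. The acinar marker CPA1 and the endocrine marker GCG had at most 3 reads in a library. The fibroblast marker COL1A1 had 3 to 82 reads. In such bulk samples, fewer cells and less RNA per cell cannot be told apart.

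Without a compound, most translocase mRNAs were less polysome-associated than the average mRNA of these cells. In DMSO cells, 15 of 23 translocases (65.2%) had a lower level in polysome-associated than in total RNA, against 29.6% of all genes tested, and 3 (TOMM70, TIMM44 and TOMM40) had a higher level, against 26.4%. Of the carriers, 10 of 35 (28.6%) were lower and 4 were higher. The median difference was -0.58 on the log2 scale for translocases and -0.22 for carriers, against -0.01 for all genes. Libraries were scaled separately, so these values are relative to the average gene. As in all comparisons here, the test was edgeR's quasi-likelihood test, and a gene was called where the change exceeded 1.2-fold with an adjusted p (Benjamini-Hochberg, over all genes tested) under 0.15.

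By group median, the mRNAs of the smallest subunits stood lowest. TOMM5, a small subunit of the TOM complex encoded on chr9:37582646-37592604 (GRCh38), had 1207, 1709, 684 and 748 CPM in the 4 total RNA libraries with DMSO and 272, 326, 134 and 158 CPM in the polysome libraries, a log2 difference of -2.28 (adjusted p = 1.61e-09). TIMM8B, a small TIM chaperone on chr11:112084800-112086798, had 394, 412, 239 and 227 CPM in total and 77.1, 78.6, 54.4 and 43.5 CPM in polysome-associated RNA, a difference of -2.31 (adjusted p = 8.93e-10). For both genes every polysome library was below every total RNA library. All 6 small TIM chaperones and all 3 of TOMM5, TOMM6 and TOMM7 were lower, with medians of -1.39 and -1.44. At the other end, TOMM70, the receptor for carrier precursors and the longest translocase, was higher in polysome-associated RNA by 1.06 (adjusted p = 8.01e-05).

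Across the 23 translocases, this difference followed the coding length of the canonical transcript with a Spearman's rho of 0.905. Across the 35 carriers rho was -0.08, and across 10140 genes with a coding length it was 0.606. These are descriptions across genes, which share the same 24 libraries and are no independent replicates. The coding lengths differed between the classes, with a median of 513 nt for translocases, 945 nt for carriers and 1380 nt for all genes, and of 278 nt for the small TIM chaperones and 165 nt for TOMM5, TOMM6 and TOMM7. The coding lengths of the carriers ran from 822 nt (SLC25A26) to 2034 nt (SLC25A12), with most near the median. SLC25A39, required for glutathione import into mitochondria, was lower on polysomes with a difference of -1.14 (adjusted p = 5.96e-05).

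**Figure D1:**
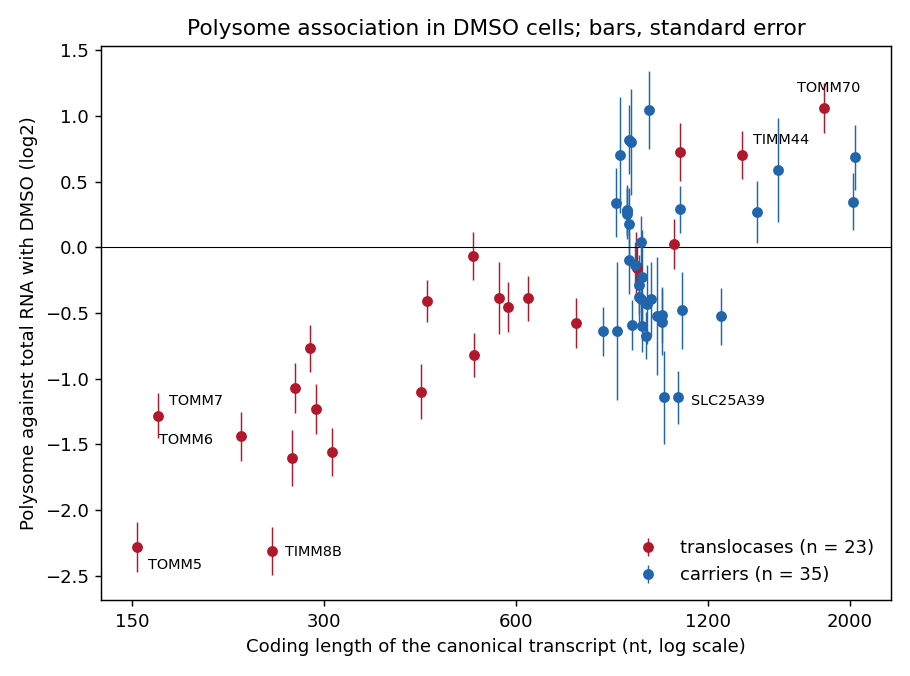
Polysome-associated against total RNA in DMSO cells (log2, vertical axis) against the coding length of each member (nt, log scale), with translocases in red and carriers in blue and bars showing the standard error. The translocases run from TOMM5 at -2.28 and TIMM8B at -2.31 to TOMM70 at 1.06 as the coding length grows, whereas most carriers share a narrow range of lengths.

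Per kilobase of transcript, the members spanned a wide range of levels in total RNA with DMSO. TOMM5 (1540 CPM per kb) and TIMM50 (1100 CPM per kb), a receptor of the TIM23 complex, stood highest, followed by TIMM10, a small TIM chaperone, at 658 CPM per kb. The highest carrier was SLC25A5, an adenine nucleotide translocator, with 449 CPM per kb. SLC25A6 of the same family had 182 CPM per kb and SLC25A4 had 8.15 CPM per kb. SLC25A30 and SLC25A16 were the lowest members, with 0.328 and 0.34 CPM per kb.

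With cercosporamide many members had a lower TE, among them most small TIM chaperones and TOM subunits. TE was called lower for 12 of 23 translocases (52.2%) and 9 of 35 carriers (25.7%), against 12.6% of all genes tested. It was called higher for 2 translocases (8.7%) and 4 carriers (11.4%), against 15.8% of all genes. The median TE change was -0.61 on the log2 scale for translocases and -0.27 for carriers, and 0.00 for all genes. By replicate the translocase medians were -0.83, -0.73, -0.47 and -0.20 and the carrier medians -0.15, -0.37, -0.13 and -0.19, all below 0. TE was lower in all 4 replicates for 13 translocases and 10 carriers, against 15.4% of all genes. The classes were compared by these counts and medians only, and their difference was not tested. The counts of lower calls fell to 4 translocases and 3 carriers without replicate 1, to 5 and 4 without replicate 2, and to 2 and 0 without plate and replicate terms, and were 13 and 6 without replicate 4. In an analysis of partial variance they were 2 and 8, and after removal of a coding length trend 2 and 9.

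**Figure D2:**
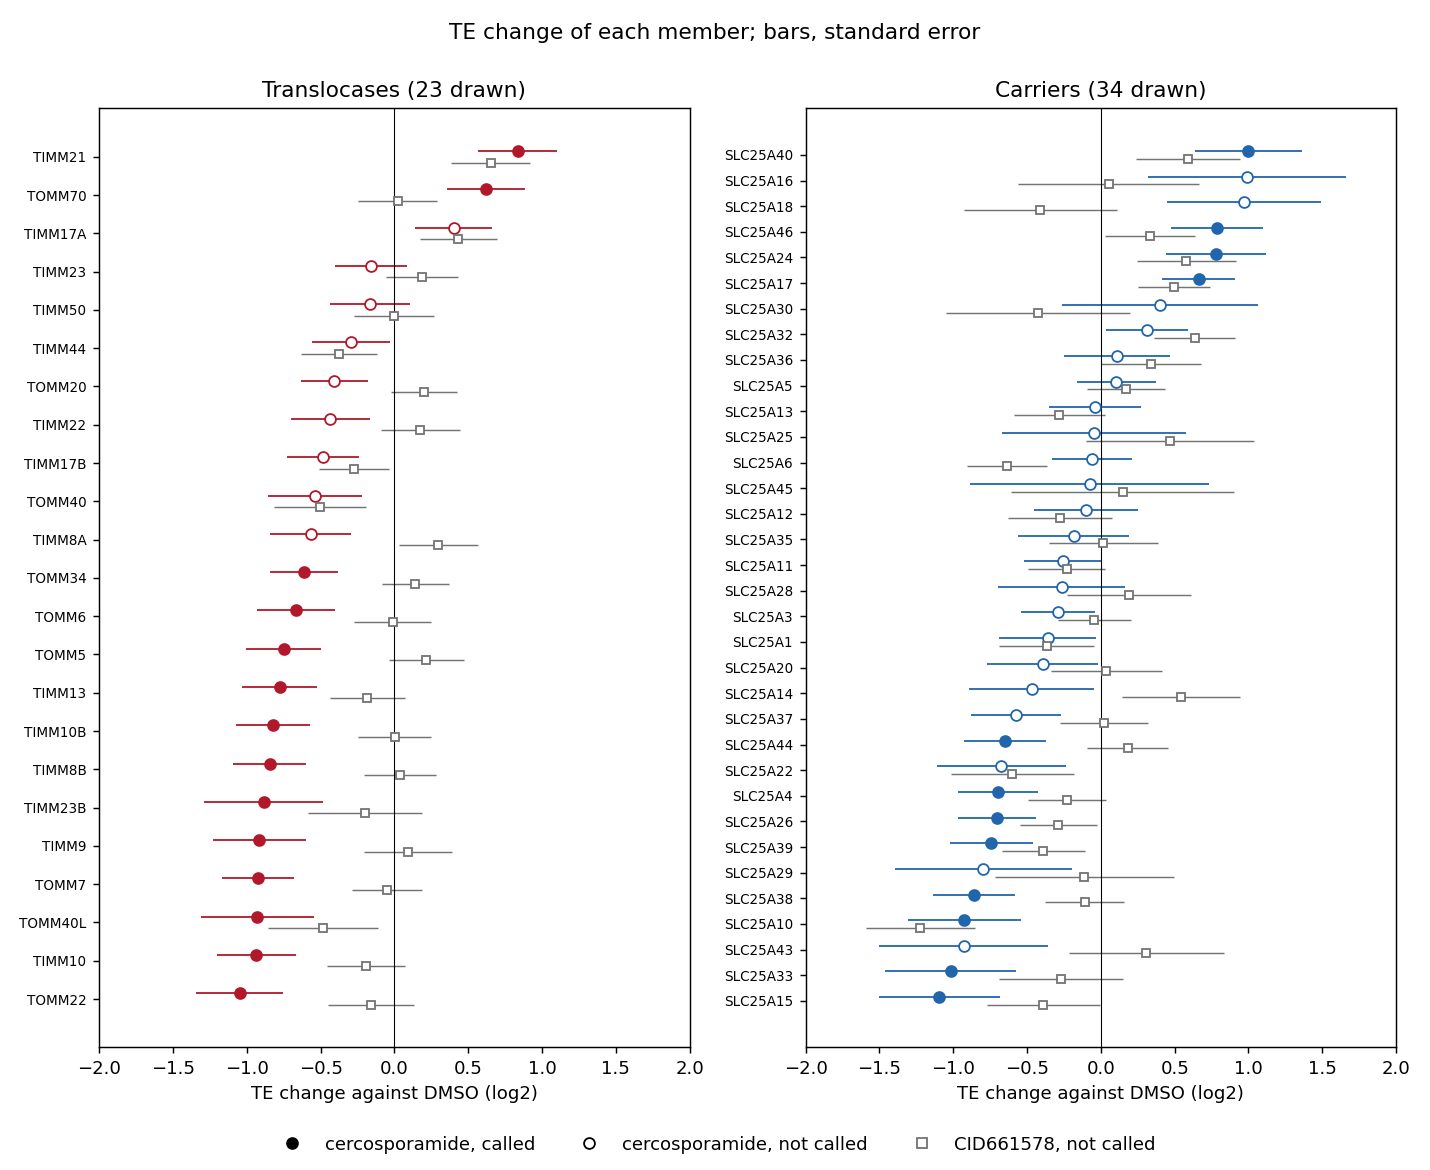
TE change against DMSO (log2, horizontal axis) of the translocases (left) and carriers (right, 1 not drawn), with bars showing the standard error, circles for cercosporamide (filled where called) and grey squares for CID661578. With cercosporamide most translocases and carriers lie below 0, whereas with CID661578 the members lie on both sides of 0 and none was called.

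**Figure D3:**
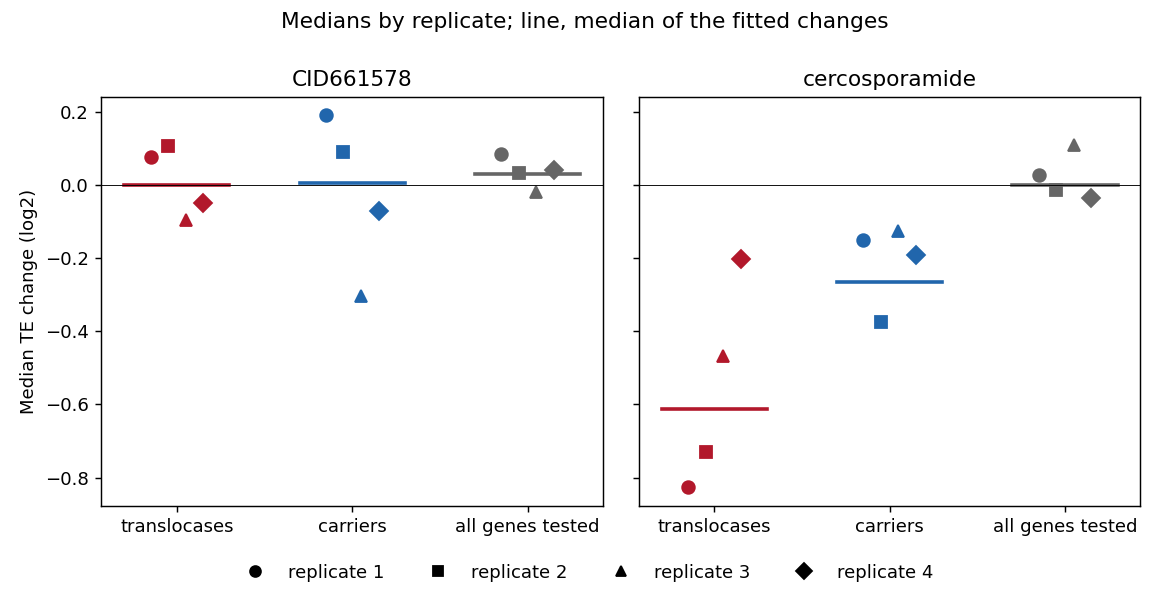
Median TE change (log2, vertical axis) of translocases, carriers and all genes tested in each of the 4 replicates (symbols), with a line at the median of the fitted changes, for CID661578 (left) and cercosporamide (right). With cercosporamide the translocase medians range from -0.83 in replicate 1 to -0.20 in replicate 4, which holds the shallow polysome library.

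Most translocases with a lower TE were buffered, and most such carriers were hypotranslated. Of the 12 translocases, 2 (TOMM7 and TIMM9) were hypotranslated, meaning that the polysome-associated level moved more than the total level. The other 10 were buffered here, meaning that the total level moved more. This rule compares the sizes of the estimates without a test, whereas the paper assessed buffering with the anota2seq algorithm. The paper's prediction for protein thus does not carry over. The polysome estimates of the 10 were also below 0, from -0.11 (TOMM5) to -0.48 (TOMM22), none of them called. Of the 9 carriers, 8 were hypotranslated and 1 (SLC25A26, the S-adenosylmethionine carrier) was buffered. Over all genes, 8.48% were hypotranslated and 4.09% were buffered with a lower TE. In total RNA alone no member was called with cercosporamide in edgeR's quasi-likelihood test, against 0.381% of all genes, while 11 members were higher and 0 were lower at an unadjusted p under 0.05, against 6.61% and 4.67% of all genes. The median total RNA change was 0.30 for translocases and 0.10 for carriers. The median polysome change was -0.21 in both classes.

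In polysome-associated RNA alone, 11 members (2 translocases and 9 carriers) fell with cercosporamide, against 13.8% of all genes, and 5 (3 translocases and 2 carriers) rose, against 18.3%. The carriers that fell included SLC25A10, SLC25A4 and SLC25A38, and TOMM7 and TIMM9 were the translocases.

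In the TOM complex, TE fell for 5 of 8 members and rose for TOMM70. TOMM22, the central receptor on chr22:38681957-38685421, had 128, 85.1, 63.7 and 79.1 CPM in total RNA with DMSO and 175, 122, 130 and 90.9 CPM with cercosporamide. In polysome-associated RNA it had 36.8, 46.1, 37.7 and 40.8 CPM with DMSO and 23.1, 31.8, 23.3 and 42.4 CPM with cercosporamide. Replicates 1 to 3 with cercosporamide were below all polysome libraries with DMSO, and replicate 4 was within them. The TE of TOMM22 fell by 1.05 ± 0.30 (SE) on the log2 scale (adjusted p = 0.0178).

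TOMM7, which stabilises the TOM complex and holds PINK1 at the outer membrane, had 50.9, 59.1, 38.9 and 45.9 CPM in polysome-associated RNA with DMSO and 24.9, 34.6, 45 and 33.8 CPM with cercosporamide, so that only replicate 3 overlapped the DMSO libraries. Its total RNA was 121, 142, 105 and 104 CPM with DMSO and 130, 111, 325 and 123 CPM with cercosporamide, where replicate 3 was far above the rest. The TE of TOMM7 fell by 0.92 ± 0.24 (adjusted p = 0.0116), in 4 of 4 replicates. TOMM5 had 1841, 1627, 1318 and 1639 CPM in total RNA with cercosporamide, and 139, 187, 204 and 271 CPM in polysome-associated RNA. Its polysome libraries overlapped those with DMSO, and its TE fell by 0.75 ± 0.25 (adjusted p = 0.0444).

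TOMM70 was the exception in this complex. It had 68, 40.5, 55 and 59.4 CPM in polysome-associated RNA with DMSO and 73.9, 71.3, 97.6 and 96 CPM with cercosporamide, without overlap between the groups. Its TE rose by 0.62 ± 0.27 (adjusted p = 0.115), a call lost in 12 of 16 alternative analyses. The pore TOMM40 had a TE change of -0.54 (adjusted p = 0.266), and the receptor TOMM20 had one of -0.41 (adjusted p = 0.236), neither called. The counts of TOMM40 are uncertain, since 22.5% of the 50-base windows of its transcript also occur in other genes of the table. TOMM34, a cytosolic cochaperone of precursor proteins, fell by 0.61 ± 0.23 (adjusted p = 0.0701).

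**Figure D4:**
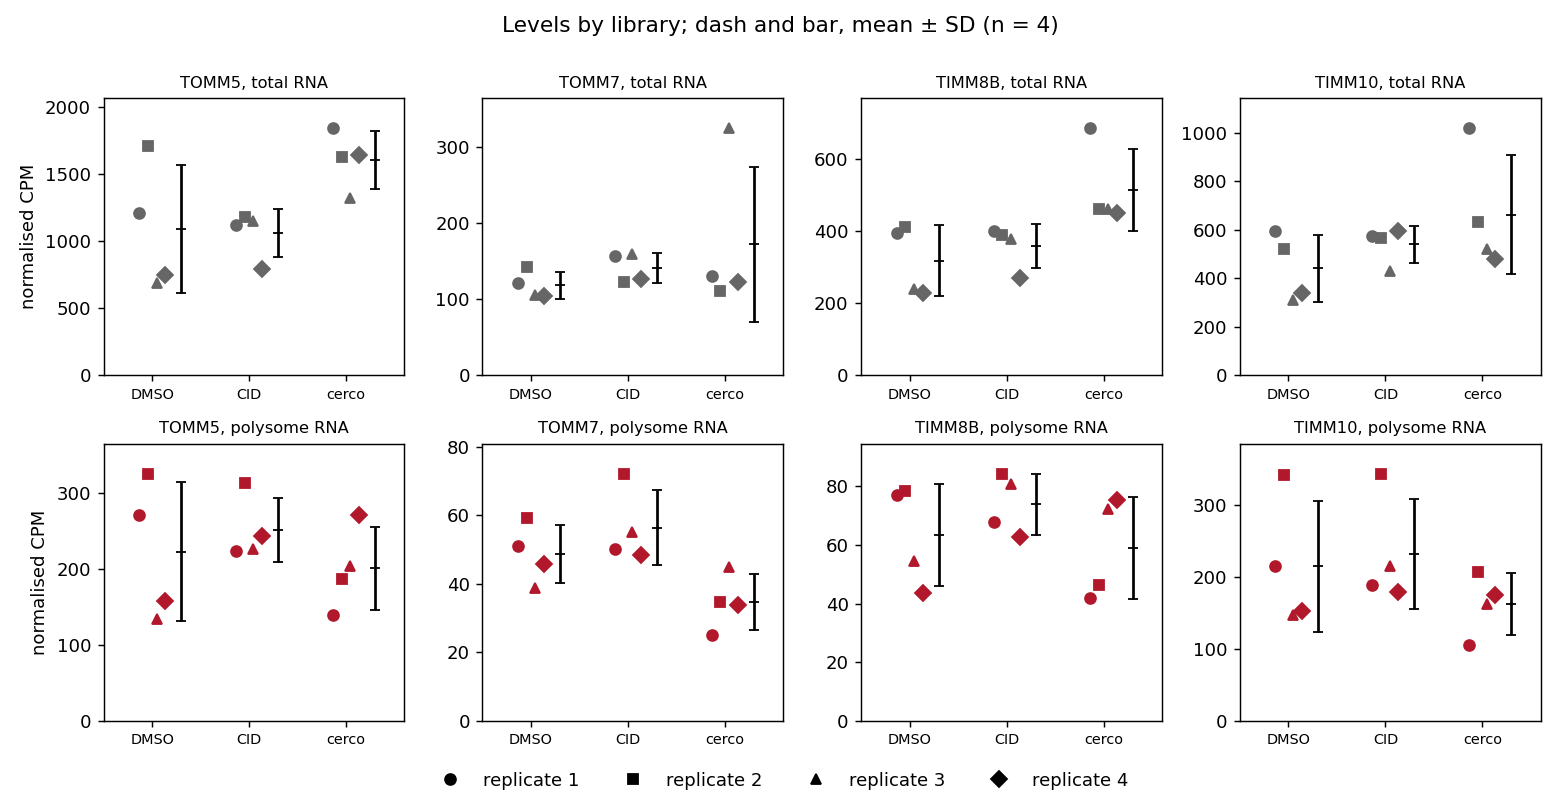
Normalised CPM (vertical axes, from 0) of TOMM5, TOMM7, TIMM8B and TIMM10 in total RNA (top, grey) and polysome-associated RNA (bottom, red) with DMSO, CID661578 (CID) and cercosporamide (cerco). Symbols are the 4 replicates and the dash with bars is the mean ± SD. TOMM5 and TIMM8B lie higher in total RNA with cercosporamide than with DMSO on average (1606 against 1087 CPM and 515 against 318 CPM) without a higher mean in polysome-associated RNA.

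Of the 6 small TIM chaperones, 5 had a lower TE with cercosporamide, and the median over the 6 was -0.83. TIMM10, which pairs with TIMM9 in the main chaperone of the intermembrane space, had 593, 521, 308 and 337 CPM in total RNA with DMSO and 1019, 630, 518 and 480 CPM with cercosporamide. In polysome-associated RNA it had 215, 341, 146 and 152 CPM with DMSO and 105, 207, 162 and 175 CPM with cercosporamide. The groups overlapped in each fraction, but the ratio of polysome-associated to total RNA fell in 4 of 4 replicates, and TE fell by 0.94 ± 0.27 (adjusted p = 0.0191).

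TIMM8B had 686, 461, 462 and 451 CPM in total RNA with cercosporamide, all above the DMSO libraries, while its polysome libraries, at 41.9, 46.3, 72.3 and 75.5 CPM, overlapped those with DMSO. Its TE fell by 0.84 ± 0.25 (adjusted p = 0.0226), and 48.8% of its transcript windows are shared, mostly with the overlapping NKAPD1. TIMM9, on chr14:58408495-58427531, was the scarcest of these chaperones on polysomes, with 5.29, 10.8, 12.3 and 9.44 CPM with DMSO and 6.05, 4.32, 5.53 and 6.62 CPM with cercosporamide. Its TE fell by 0.91 ± 0.31 (adjusted p = 0.0478). TIMM10B (-0.82) and TIMM13 (-0.78) also fell, whereas TIMM8A, with a change of -0.57, was not called (adjusted p = 0.161).

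In the TIM23 complex TE fell for 1 of 7 members and rose for 1, near the shares of all genes (12.6% and 15.8%). TIMM23B, a paralog of TIMM23 with 35% of its windows shared with other genes, mostly the readthrough gene TIMM23B-AGAP6, fell by 0.89 ± 0.40 (adjusted p = 0.135). TIMM21, which links TIM23 to the respiratory chain, rose by 0.84 ± 0.27 (adjusted p = 0.0344). In polysome-associated RNA TIMM21 had 79.8, 46.8, 42.8 and 55.5 CPM with DMSO and 96.8, 65, 76.6 and 156 CPM with cercosporamide, higher in each replicate, the last in the shallow library. The TE change of TIMM21 was 0.50 without replicate 4 and 0.42 with a GC trend removed, neither called (adjusted p = 0.269 and 0.275). The channel TIMM23 (-0.16), TIMM50 (-0.16), TIMM44 (-0.29), TIMM17A (0.40), TIMM17B (-0.48) and TIMM22 (-0.43) were not called.

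Among the adenine nucleotide and phosphate carriers, only SLC25A4, the translocator of heart and muscle, was called. Its polysome levels were 32.1, 39, 58.4 and 39.4 CPM with DMSO and 23.2, 26.7, 24.4 and 26.5 CPM with cercosporamide, without overlap. Its TE fell by 0.70 ± 0.27 (adjusted p = 0.0774). SLC25A5 (0.11), SLC25A6 (-0.06) and SLC25A3 (-0.29), the phosphate carrier, were not called.

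Among the amino acid, carnitine and glutathione carriers, SLC25A38, the glycine carrier of haem synthesis, had 24, 19.6, 29 and 20.6 CPM in polysome-associated RNA with DMSO and 13.7, 15.8, 14.4 and 11.9 CPM with cercosporamide, again without overlap. Its total RNA ranged from 30.6 to 42.2 CPM with DMSO and from 29.6 to 51.8 CPM with cercosporamide. Its TE fell by 0.86 ± 0.28 (adjusted p = 0.0358), a call kept in 15 of 16 alternative analyses. SLC25A15, the ornithine carrier of the urea cycle, fell by 1.09 ± 0.41 (adjusted p = 0.0708) at low levels, with 8.02, 8.46, 4.94 and 4.96 CPM on polysomes with DMSO and 4.42, 4.32, 2.54 and 2.65 CPM with cercosporamide. SLC25A39 (-0.74) and SLC25A44 (-0.65), a carrier of branched-chain amino acids, also fell. SLC25A40, a paralog of SLC25A39, rose by 1.00 ± 0.36 (adjusted p = 0.0614), a call lost in 7 of 16 alternative analyses. It was buffered, with a change of -0.67 in total and 0.30 in polysome-associated RNA, neither called. With a GC trend removed, neither SLC25A40 (0.26) nor SLC25A39 (-0.37) was called for TE.

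Of the nucleotide and cofactor carriers, SLC25A33 (-1.02), a pyrimidine nucleotide carrier, and SLC25A26 (-0.70) fell. SLC25A24, an ATP-Mg and phosphate carrier, rose by 0.78 ± 0.34 (adjusted p = 0.119), a call lost in 11 of 16 alternative analyses. SLC25A17, a peroxisomal member of the family, rose by 0.66 ± 0.25 (adjusted p = 0.0679). This call was lost in 6 of 16, among them without replicate 4 and with a GC trend removed (0.32). SLC25A17 had 73.1, 76.8, 73.8 and 159 CPM on polysomes with cercosporamide, the last in the shallow library, against 67.6, 48.7, 61.6 and 69.2 CPM with DMSO. Among the organic acid carriers only SLC25A10, the dicarboxylate carrier, fell (-0.92), the oxoglutarate carrier SLC25A11 (-0.26) was not called, and SLC25A46 of the outer membrane rose (0.79), a call lost in 9 of 16 alternative analyses. The iron carriers SLC25A37 (-0.57) and SLC25A28 (-0.27) were not called.

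With CID661578, no member passed the test for TE. In edgeR's quasi-likelihood test 0 of 58 were called, against 0.207% of all genes, while 2 were higher and 2 lower at an unadjusted p under 0.05, against 4.92% and 3.95% of all genes. DESeq2 called 0 as well. The median TE change was 0.00 for translocases and 0.01 for carriers, against 0.03 for all genes. In total RNA 0 members were called, against 0.448% of all genes, with 0 higher and 3 lower at an unadjusted p under 0.05, against 3.65% and 3.52% of all genes. In polysome-associated RNA 3 members fell, against 3.96% of all genes, and these were SLC25A10, SLC25A6 and TOMM40. SLC25A10 had 23.6, 45.1, 35.5 and 29.3 CPM on polysomes with DMSO and 17.2, 33.3, 17.5 and 9.27 CPM with CID661578, lower in each replicate, and fell by 0.89 (adjusted p = 0.022).

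The difference between the compounds was tested directly, each at its own dose. The TE change after CID661578 was above that after cercosporamide for 11 of 23 translocases (47.8%) and 3 of 35 carriers (8.57%), against 7.93% of all genes, and below it for 1 member, the glutamate carrier SLC25A18, against 7.57%. The median difference was 0.61 for translocases, 0.23 for carriers and -0.03 for all genes. TOMM5 (0.97, adjusted p = 0.0269), TOMM7 (0.87, adjusted p = 0.0345), TIMM8B (0.88, adjusted p = 0.0364) and TIMM9 (1.01, adjusted p = 0.0546) were among the translocases that differed. The doses were 40 µM and 5 µM, and both TE changes rest on the same DMSO libraries.

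Of 27 genes of import and maturation outside the symbol rule, 7 had a lower and 4 a higher TE with cercosporamide, against 12.6% and 15.8% of all genes, so that the higher count was near the background. The lower ones included the J-like and J-domain subunits of the import motor PAM16 (-1.93, adjusted p = 0.00169) and DNAJC19 (-1.21, adjusted p = 0.00193) and the small inner membrane protein ROMO1 (-1.15, adjusted p = 0.00269). The higher ones included the unfoldase CLPX (1.71, adjusted p = 0.00238) and the chaperones HSPA9 (0.97) and HSPD1 (0.96). Of 18 other membrane transporters tested, 5 were lower, among them the MTCH2 insertase (-0.72) and SFXN4 (-0.71), and 1 was higher, against the same shares of all genes.

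The lower TE of the translocases moved with coding length. Across the 23 translocases the TE change with cercosporamide followed coding length with a Spearman's rho of 0.573, against 0.219 across the carriers and 0.334 across all genes, as a description across genes of the same libraries. After the trend of each library on coding length was removed, an analysis chosen after seeing the data, 2 of the 12 translocases called lower (TOMM40L and TOMM34) and all 9 carriers kept the call, and 10.2% of all genes were lower. The translocase median moved from -0.61 to -0.16 and the carrier median from -0.27 to -0.35. For the small TIM chaperones 0 of 6 were then lower (median -0.18), and for TOMM5, TOMM6 and TOMM7 0 of 3 (median 0.06), with TOMM5 at 0.07. None of the differences between the compounds remained called. In DMSO cells, the same step moved the medians of these groups from -1.39 to -0.14 and from -1.44 to 0.10. After removal of a GC trend instead, 9 of the 12 translocases and 5 of the 9 carriers kept the lower call. No member called higher kept its call in that fit. The part of coding length in the lower TE was not tested beyond these values.

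**Figure D5:**
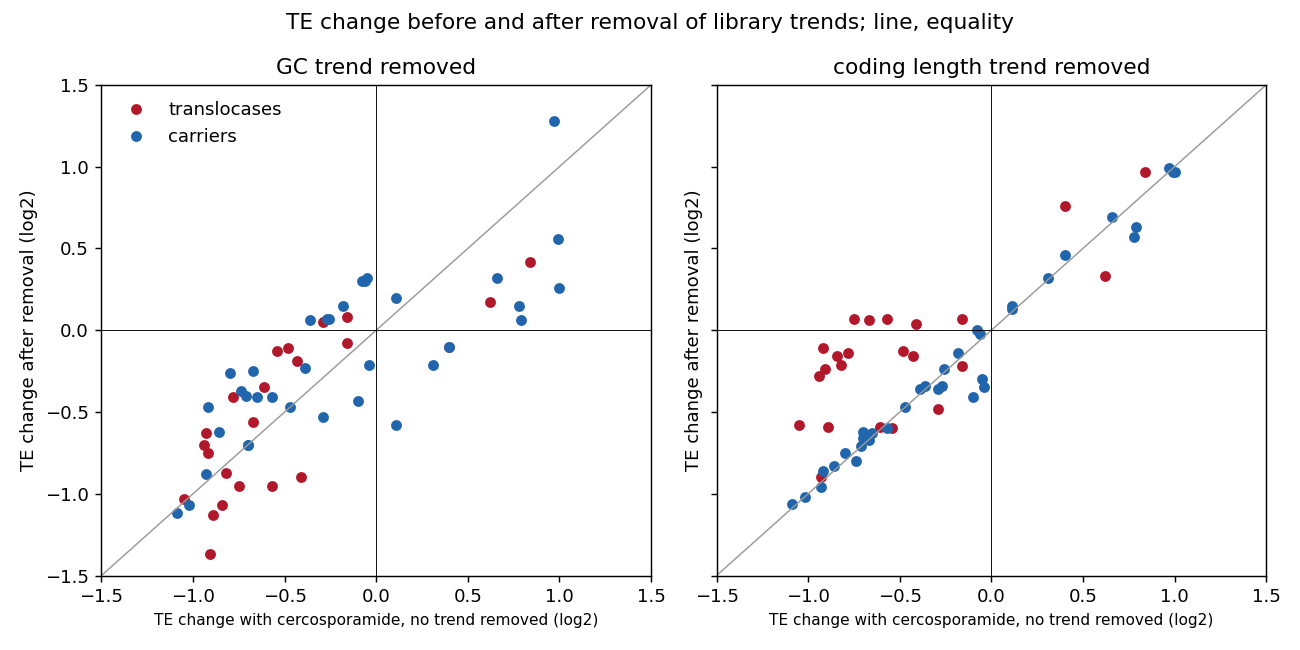
TE change with cercosporamide (log2) without (horizontal axis) and with (vertical axis) removal of a trend of each library on GC content (left) or coding length (right), for translocases (red) and carriers (blue), with a line of equality. On the right the carriers stay near the line, whereas most translocases that were between -0.57 and -0.94 move up to between -0.28 and 0.07.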

How the data were processed

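Smart-seq2 libraries of total cytosolic and polysome-associated RNA were made by the authors, who removed ribosomal RNA reads, aligned to hg38 with HISAT2 and counted on RefSeq genes with featureCounts at default settings. The deposited values are these raw counts, neither normalised nor filtered. Strand was ignored and reads with several alignments were counted at each, so overlapping genes and near copies are uncertain. Demultiplexing used bcl2fastq 2.20.0.422 and quality control FastQC 0.11.8, per the labels.

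Genes with a 0 in any of the 24 libraries were removed and the rest scaled by TMM. TE changes were fitted with edgeR 4.0.16 (quasi-likelihood test) in R 4.3.3, with a term per plate and a polysome term per replicate, since the study treats the replicate as its batch. Each fraction was also fitted alone with the replicate as a term. Called genes whose total RNA changed more than their polysome-associated RNA counted as buffered, by the size of the estimates and without a test of buffering. Depth, 1592459 to 12184749 reads, limits members with few reads. Simulated counts were also fitted, but they held no plate or replicate effects and so cannot test those terms.

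Members and lists were chosen with earlier results of these data known. Named genes were, by rule, the most abundant member of each role group, up to 12 called members per compound and direction with the smallest p, up to 8 that differed between compounds, and SLC25A4 to SLC25A6, TIMM17A, TIMM17B, TIMM23, TOMM20 and TOMM40, plus the 3 called genes of smallest p in each pathway list. Values of 2 of these genes are not reported here. TOMM6, TOMM40L, TIMM23B, TIMM44, ROMO1, HSPA9, HSPD1 and the other carriers given were named after their values were seen. Coordinates, coding lengths and GC content came from GENCODE release 44 (GRCh38), and transcript windows of 50 bases were searched for in other genes of the table. Alternatives were other scalings, filters, terms and thresholds, fits with DMSO and 1 compound, DESeq2 1.42.0, an analysis of partial variance written after the description of anota2seq, removal of GC or coding length trends (loess, span 0.5), and each replicate left out.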

Additional observations from a re-analysis of the deposited data

Results flagged for a closer look

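Of 192 groups of 4 libraries tested among the named members, 16 held a library far from the other 3, where chance flags about 1 in 20. In total RNA with DMSO, replicate 1 was apart for SLC25A37 (21.5 CPM) and SLC25A46 (13.6 CPM). In total RNA with CID661578, the libraries apart were replicate 1 for SLC25A11 (141 CPM) and TIMM50 (3477 CPM, against 6514 to 6722), replicate 2 for SLC25A37 (15.3 CPM), replicate 3 for TIMM10 (428 CPM), and replicate 4 for TIMM8B (269 CPM) and TOMM5 (792 CPM). In total RNA with cercosporamide, they were replicate 1 for TIMM8B (686 CPM), replicate 2 for SLC25A11 (358 CPM), replicate 3 for SLC25A4 (41.6 CPM) and TOMM7 (325 CPM, against 111 to 130), and replicate 4 for TIMM13 (230 CPM). In polysome-associated RNA, they were replicate 4 with DMSO (4826 CPM) and replicate 2 with CID661578 (7009 CPM) for TIMM50, and replicate 4 with cercosporamide for SLC25A17 (159 CPM, against 73.1 to 76.8), the library with the fewest reads.

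The TE change differed between CID661578 and cercosporamide in edgeR's test of the difference itself for 8 named translocases, each above 0 on the log2 scale. The difference was 1.01 for TIMM9, 0.97 for TOMM5, 0.89 for TOMM22, 0.88 for TIMM8B, 0.87 for TOMM7, 0.86 for TIMM8A, 0.82 for TIMM10B and 0.75 for TOMM34, with adjusted p between 0.0269 and 0.0765.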

How the results depend on the processing

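With cercosporamide, 21 members had a lower and 6 a higher TE, 10 were hypotranslated, 5 hypertranslated and 12 buffered. The lower count was 2 without plate term and replicate block and 9 at an adjusted p below 0.05. It was 10 in the analysis of partial variance and 11 with the coding length trend removed. The higher count was 0 without plate term and block, 1 at the stricter threshold, and 1 each with no filter and with the GC trend removed. With the GC trend removed, none of the 6 kept the call, and the 1 called was SLC25A18 (1.28, adjusted p = 0.115 in edgeR's test). The hypotranslated count was 1 without plate term and block and 3 at the stricter threshold. The hypertranslated count was 0 without plate term and block, 3 with DESeq2 size factors, 2 with filterByExpr, 1 each with no filter, at the stricter threshold and with the GC trend removed, and 3 with the coding length trend removed. Buffered members were 1, 6 and 4 without plate term and block, at the stricter threshold and with the coding length trend removed. The translocase median was -0.22 in the analysis of partial variance and -0.16 with the coding length trend removed. That removal reversed TOMM5 (0.07) and the difference between compounds of TOMM7 (-0.01).

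The 14 members with a higher TE change after CID661578 than after cercosporamide became 0 without plate term and block, 3 at the stricter threshold and 0 with the coding length trend removed. The 1 member with a lower one (SLC25A18) became 0 in these and with filterByExpr or no filter, and 2 with the GC trend removed. With CID661578, 1 member was called lower and hypotranslated with no filter.

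Leaving out each replicate in turn gave 7 to 19 lower and 1 to 4 higher TE calls with cercosporamide, 3 to 11 hypotranslated, 1 to 3 hypertranslated and 4 to 11 buffered members, and carrier medians from -0.52 to -0.14. It gave 0 to 2 lower and hypotranslated members with CID661578, and 0 to 15 members higher and 0 to 1 lower in the difference between the compounds. The low ends of the lower calls and of the difference came without replicates 1 and 2. The cause of these changes was not tested.

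Same-numbered libraries of a treatment and DMSO deviated together with r over 0.1 in 13 of 16 cases (lowest -0.0186). Differently numbered libraries were not compared and each DMSO library served for both compounds, so these values cannot decide the pairing. The pairing by number rests on the study's use of the replicate as batch. Without the replicate block, TE was lower for 20 and higher for 3 members with cercosporamide, 2 were hypertranslated, and the difference between compounds was higher for 11 and lower for 0.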

Other observations

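TIMM50 was the most abundant member, at rank 11 of 12058 genes by mean log2 CPM (12.54). Of the genes near it on chromosome 19, chosen after the values were seen, RPS16 stood at rank 4, SUPT5H at rank 207 and DLL3, which starts next downstream, at rank 399, whereas PLEKHG2, ZFP36 and EID2B stood at ranks 2476, 3486 and 7698. Across translocases the TE change with CID661578 followed the GC content of the transcript with a Spearman's rho of -0.70. For carriers rho was -0.49, against -0.56 across 11650 genes. With cercosporamide rho was -0.18 across translocases, -0.505 across carriers and -0.53 across these 11650 genes. These are descriptions across genes that share the same libraries.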
